A study of Arabidopsis thaliana with 16 samples.

Results

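GLK1, GLK2, HY5, HYH, GNC and CGA1 are 6 transcription factor genes that turn plant tissue green and were followed here through roots and shoots of Arabidopsis seedlings with and without phosphate (Pi). They were chosen as loci with a known role in greening, AT2G20570 (GLK1), AT5G44190 (GLK2), AT5G11260 (HY5), AT3G17609 (HYH), AT5G56860 (GNC) and AT4G26150 (CGA1). All 6 were found among the 27206 protein-coding genes of the expression table, where they account for 10 of 35176 transcripts, and all 6 passed the filter on low values. The plants were wild-type Col-0 seedlings, 10 days old, from plates with 1.25 mM KH2PO4 (P+) or with 0.65 mM K2SO4 in its place (P–), and every group shared 1% sucrose, 1.2% agar and 16 h of light a day at 100 µmol m-2 s-1. Whole roots and whole shoots were each sequenced as RNA with a poly(A) tail, the poly(A)+ fraction, and as RNA without one, the poly(A)– fraction, with 2 libraries in each of 8 groups and 16 in all. Levels are in FPKM, fragments per kilobase of transcript scaled to the mapped fragments of each library, so that genes of different length can be set beside each other.

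GLK1 and GLK2 are GARP-type factors that bind and switch on nuclear genes for light harvesting and chlorophyll synthesis, and each can largely stand in for the other. HY5 is a bZIP factor that accumulates in light, because darkness lets the COP1 ubiquitin ligase mark it for degradation, and HYH is its closest relative and partner. GNC and CGA1 are a pair of B-class GATA factors, raised by light and cytokinin and held down by gibberellin and auxin signalling, that promote chloroplast development. Roots normally stay pale, and greening of roots in the light is known to need HY5 and the GLK pair, so their root levels are set here beside the photosynthesis genes of the same libraries.

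Markers and replicates set the scale for what follows. All 12 Pi starvation markers tested were called higher in P– roots and in P– shoots, so the treatment shows in both tissues. Of 10 shoot markers, 9 were listed at 0 or stayed at or below 0.305 FPKM in every poly(A)+ root library, and the remaining gene, AS1, stood at 5.17 to 20.8 FPKM there. In poly(A)+ the 11 root markers summed to 23.5 and 20.2 FPKM in P+ shoots and to 78.8 and 65.9 FPKM in P– shoots, against 668 to 1050 FPKM in roots, and 6 of the 11 were called higher in P– shoots. Libraries of the same poly(A)+ group differed less in shoots than in roots: their log2 difference over all genes had an SD of 0.445 and 0.468 in the shoot groups, of 0.642 (P–) and 0.864 (P+) in the root groups, and of 0.896 to 1.25 in poly(A)–. Root libraries are numbered 2 and 3 in the table and shoot libraries 1 and 2. In the deposited list of called transcripts, where columns carry the labels' own names, root replicate 1 (unstranded setting) holds the values of root library 2 at all 6364 transcripts within 4 digits, and root replicate 2 (first-strand setting) those of library 3. Shoot library 1 has the first-strand and shoot library 2 the unstranded setting, so that in each tissue the number goes with a strand setting under P+ and P– alike. The tables hold FPKM and no read counts, and the read totals given by the study were not used here, so no counting error is attached to single values. With 2 libraries per group, p-values measure the spread between these libraries. Bulk tissue was sequenced, so fewer cells of a type and less RNA per cell cannot be told apart.

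**Figure D1:**
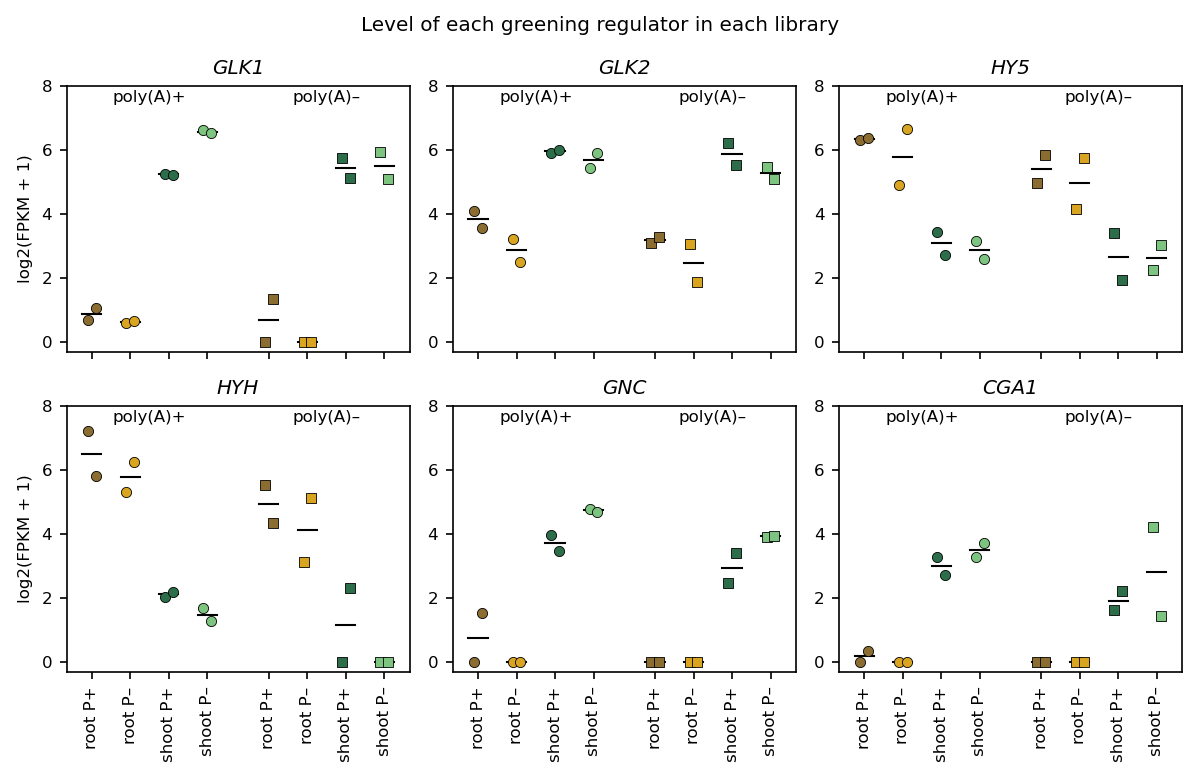
Level of each of the 6 genes in each of the 16 libraries, as log2(FPKM + 1), with circles for poly(A)+ and squares for poly(A)– libraries and a line at the mean of each group of 2. GLK1, GLK2, GNC and CGA1 sit high in shoots and HY5 and HYH sit high in roots, and GLK1 in poly(A)+ shoots is the gene whose P– libraries (97.1 and 91.1 FPKM) lie farthest above its P+ libraries (37.4 and 36.2 FPKM).

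The 6 genes split by tissue. GLK1, GLK2, GNC and CGA1 were higher in shoots and HY5 and HYH were higher in roots, and this held under P+ and under P–. In the poly(A)+ fraction all 6 were called different between the tissues under either condition at an adjusted p of 0.05 (limma, adjusted p from 2.53e-06 to 0.00235), where 47.3% of all genes tested were called under P+ and 43.6% under P–. HYH had the largest excess in P+ roots, 4.39 on the log2 scale (SE 0.48, limma adjusted p = 0.000105), and GLK1 the largest deficit, -4.36 (SE 0.28, 5.49e-06). HY5 was higher in P+ roots by 3.27, and GLK2, GNC and CGA1 stood at -2.14, -2.96 and -2.82. When libraries were rescaled by their median ratio, the median over all genes of the comparison under P+ went from 0.346 to 0.0537, that under P– from 0.316 to 0.0447, and all 6 genes kept their calls and directions.

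GLK1 lies on the plus strand of chromosome 2 (chr2:8855302-8857758, TAIR10.1), and GLK2 on the plus strand of chromosome 5 (chr5:17798262-17800926). No other annotated gene and no assembled long noncoding RNA overlaps either, so their reads have no overlapping neighbour to be mixed with. The stretches from 250 bases before to 50 bases after the annotated start are shown for these close relatives. GLK1 was called for Pi in shoots and GLK2 was not, and their responses were not tested against each other. Capitals mark ACGT, the core that HY5 and other bZIP factors bind, and CCAATC, a motif associated with GLK1 target genes, where either occurs. GLK1 (chr2:8855052-8855351, plus strand) and GLK2 (chr5:17798012-17798311, plus strand) read 5′ to 3′, from NCBI's copy of TAIR10.1:
GLK1: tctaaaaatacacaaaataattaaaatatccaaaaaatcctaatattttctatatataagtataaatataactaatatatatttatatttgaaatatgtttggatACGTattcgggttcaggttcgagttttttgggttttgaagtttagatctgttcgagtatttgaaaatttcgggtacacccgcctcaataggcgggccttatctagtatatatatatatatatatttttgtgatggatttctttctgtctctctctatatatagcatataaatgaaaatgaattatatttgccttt
GLK2: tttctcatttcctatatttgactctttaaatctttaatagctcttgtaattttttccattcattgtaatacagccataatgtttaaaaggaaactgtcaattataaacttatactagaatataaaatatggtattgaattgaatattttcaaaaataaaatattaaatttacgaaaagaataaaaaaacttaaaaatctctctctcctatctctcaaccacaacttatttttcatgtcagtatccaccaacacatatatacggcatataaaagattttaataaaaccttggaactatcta
The GLK1 window holds ACGT once, 145 bases before the start, and the GLK2 window holds neither motif. ACGT occurs in 49.9% of 27443 windows of this length and CCAATC in 12.3%, both strands searched. No window of the 4 genes searched, GLK1, GLK2, GNC and CGA1, holds CACGTG, the G-box, which contains the core and occurs in 7.68% of windows. No window of the 4 holds P1BS (GNATATNC), the motif bound by PHR1, found in 6.25%. In the 1000 bases before the start, the G-box occurs once each at GLK1, GNC and CGA1 (14.8% of all genes) and P1BS once at GNC (20.2%).

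GLK1 rose in P– shoots. Its poly(A)+ level was 37.4 and 36.2 FPKM in P+ shoots and 97.1 and 91.1 FPKM in P– shoots, so the means went from 36.8 ± 0.884 to 94.1 ± 4.29 FPKM (SD, n = 2). The ranges lie far apart, and the difference is 1.33 on the scale of log2(FPKM + 1) (SE 0.28, 95% interval 0.70 to 1.96, limma adjusted p = 0.0246). This was the single call of the 6 genes in shoots, where 8.35% of all genes tested were called and 5.09% were called higher. By its level GLK1 stood above 80.9% of all genes in P+ shoots and above 92.1% in P– shoots. The size was 1.28 to 1.38 without any single shoot library, but with 3 shoot libraries the adjusted p was 0.144 to 0.207, and with 0.1 FPKM added it was 0.0605. With the library number as a block it was 0.0536 (block in shoots alone) or 0.0400 (block in both tissues) by limma. GLK1 reached at most 1.08 FPKM in a root poly(A)+ library. Root markers rose in the same P– shoot libraries, and their part in the rise of GLK1 was not tested.

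In roots GLK1 was close to the floor. It stood at 0.633 and 1.08 FPKM in P+ roots and at 0.504 and 0.594 FPKM in P– roots, below every shoot library. The P– libraries lie just below the P+ libraries, with a difference of -0.25 (95% interval -0.88 to 0.37, limma adjusted p = 0.627). The response in roots minus that in shoots was -1.58 (SE 0.39, limma adjusted p = 0.0638), which missed the threshold. None of the 6 genes passed that test of the difference, with 2 of them, GLK1 and GNC, at an unadjusted p under 0.05, and 3.56% of all genes were called. Of 16 alternative settings, 3 took the difference of GLK1 past the threshold. These were 5 FPKM added (-1.32, limma adjusted p = 0.0368) and the fits without P+ root library 2 (-1.76) or 3 (-1.41). With a P+ root library left out, that group adds no spread to the fit.

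GLK2, the relative of GLK1, did not share the rise. It stood at 59.6 and 63.7 FPKM in P+ shoots and at 42.2 and 59.4 FPKM in P– shoots, a difference of -0.29 (SE 0.33, 95% interval -1.05 to 0.47, limma adjusted p = 0.629). In roots GLK2 is the GLK gene with a clear level, at 15.9 and 11.0 FPKM under P+ and 8.40 and 4.70 FPKM under P–. Both P– root libraries lie below both P+ libraries, and the difference was -0.96 (SE 0.33, 95% interval -1.72 to -0.20, limma unadjusted p = 0.0192, adjusted p = 0.144). GLK2 thus missed the threshold over all genes, with adjusted p between 0.0586 and 0.480 over 17 alternative settings. It was lower under P– in library 2 and in library 3, and with the library number as a block in both tissues its adjusted p by limma was 0.0855. GLK1 and GLK2 are the 2 of the 6 genes whose P– root libraries both lie below both P+ libraries, a pattern that 19.2% of all genes tested show.

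The balance within the GLK pair turned over in shoots. GLK1 over GLK2 was 0.628 and 0.568 in P+ shoots and 2.3 and 1.53 in P– shoots, so GLK2 was the more abundant of the pair with Pi and GLK1 without it. In roots the ratio stayed between 0.0397 and 0.127, with GLK2 ahead in all 4 libraries. The poly(A)– libraries gave 0.732 and 0.743 in P+ shoots and 1.38 and 1.01 in P– shoots.

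**Figure D2:**
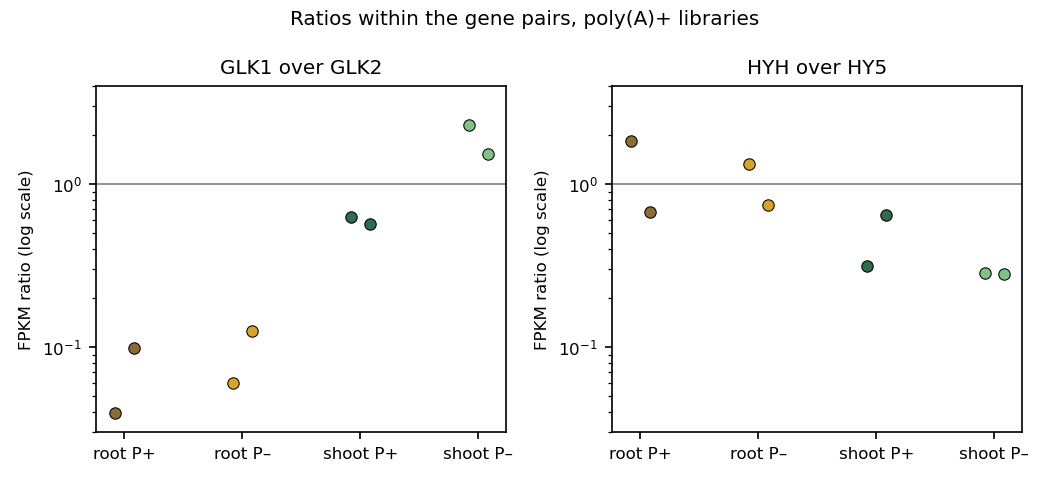
Ratio of GLK1 to GLK2 and of HYH to HY5 in each poly(A)+ library, on a log axis with a line at equal levels. GLK1 over GLK2 lies below 1 in P+ shoots (0.628 and 0.568) and above 1 in P– shoots (2.3 and 1.53), and HYH over HY5 lies on both sides of 1 in roots.

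GLK1 has 2 annotated transcripts, and the rise in P– shoots was carried by the first. AT2G20570.1 made up 99.8% of the gene in P+ shoots and 94.7% in P– shoots, at 37.3 and 36.1 FPKM and then 96.2 and 82.2 FPKM. AT2G20570.2 was at 0.114 and 0.0380 FPKM in P+ shoots and at 0.961 and 8.91 FPKM in P– shoots, so its P– libraries differ widely from each other. The transcripts share most of their exons, and the split of shared reads between them is an estimate of the quantification program.

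HY5 and HYH carry the opposite tissue pattern. HY5 lies on the minus strand of chromosome 5 and HYH on the plus strand of chromosome 3, with no overlapping gene.

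HY5 was a strongly expressed root gene whose P– libraries disagreed. It stood at 79.4 and 82.0 FPKM in P+ roots, above 89.4% of all genes, and at 28.9 and 100.5 FPKM in P– roots. One P– library lies below and the other above both P+ libraries, so the groups overlap, and the difference of -0.57 (95% interval -1.78 to 0.65, limma adjusted p = 0.569) became 0.31 without P– root library 2 and -1.45 without P– root library 3. In shoots HY5 stood at 9.93 and 5.57 FPKM under P+ and at 7.95 and 5.01 FPKM under P–, again overlapping (-0.21, 95% interval -1.42 to 1.00, limma adjusted p = 0.853). No direction of HY5 with Pi can be read from these libraries in either tissue.

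HYH was the most abundant of the 6 genes in P+ roots, with a wide spread. It stood at 146.7 and 55.7 FPKM in P+ roots and at 38.6 and 75.1 FPKM in P– roots. P– library 3 lies above P+ library 3, so the groups overlap, with a difference of -0.74 (SE 0.48, limma adjusted p = 0.408). In shoots HYH was low, at 3.12 and 3.61 FPKM under P+ and 2.27 and 1.42 FPKM under P–. There both P– libraries lie below both P+ libraries, at -0.63 (SE 0.48, 95% interval -1.73 to 0.47, limma adjusted p = 0.458). HYH and GLK2 are the 2 of the 6 genes lower in this way in shoots, against 25.9% of all genes. HYH over HY5 was 1.85 and 0.679 in P+ roots and 1.33 and 0.747 in P– roots, so the leading gene of the pair differed between library 2 and library 3 under both conditions. In shoots HY5 led in all 4 libraries, with ratios of 0.283 to 0.648.

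HYH has 4 annotated transcripts. In P+ roots AT3G17609.2 made up 52.1% of its FPKM, AT3G17609.4 33.0%, AT3G17609.3 12.5% and AT3G17609.1 2.44%. In P– roots the first 2 of these held 51.8% and 27.9%. In P– shoots nearly all of the 1.84 FPKM was assigned to AT3G17609.2, at a level where a split between overlapping transcripts rests on few reads.

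GNC and CGA1 were shoot genes that were nearly absent from roots. GNC lies on chromosome 5 (chr5:22989216-22991530, minus strand) and CGA1 on chromosome 4 (chr4:13253084-13255106, plus strand). In roots both were listed at 0 in both P– libraries and in P+ library 2, and P+ library 3 alone held 1.92 FPKM of GNC and 0.285 FPKM of CGA1. The same P+ library 3 also held 0.305 FPKM of TMM and 0.136 FPKM of YAB3, markers of stomata and leaf blades. The shoot markers SPCH, FAMA, EPF1, EPF2, GL1, FIL and YAB5 were listed at 0 in it, and P– library 3 held 0.132 FPKM of TMM. Whether shoot RNA plays a part in P+ library 3 was not tested. No fold is given against groups listed at 0, and the root comparison of GNC and CGA1 with Pi rests on P+ library 3 alone.

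GNC in shoots stood at 14.8 and 10.2 FPKM under P+ and at 26.6 and 25.1 FPKM under P–. The groups do not overlap, and the difference was 1.01 (SE 0.48, 95% interval -0.08 to 2.11, limma adjusted p = 0.227). At the same size, GNC passed the threshold in 2 of 17 alternative settings. Both left out a P+ root library, so that P+ roots added no spread to the fit. CGA1 stood at 8.71 and 5.64 FPKM under P+ and at 8.82 and 12.3 FPKM under P–, a difference of 0.51 (SE 0.35, limma adjusted p = 0.399). GLK1, GNC and CGA1 are the 3 of the 6 genes with both P– shoot libraries above both P+ libraries, which 40.4% of all genes tested show. GNC over CGA1 was 1.70 and 1.81 in P+ shoots and 3.02 and 2.04 in P– shoots, so GNC led in all 4 of these poly(A)+ libraries. In poly(A)– the ratio was 2.16 and 2.59 in P+ shoots and 0.795 and 8.50 in P– shoots, so CGA1 led in P– shoot library 1.

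**Figure D3:**
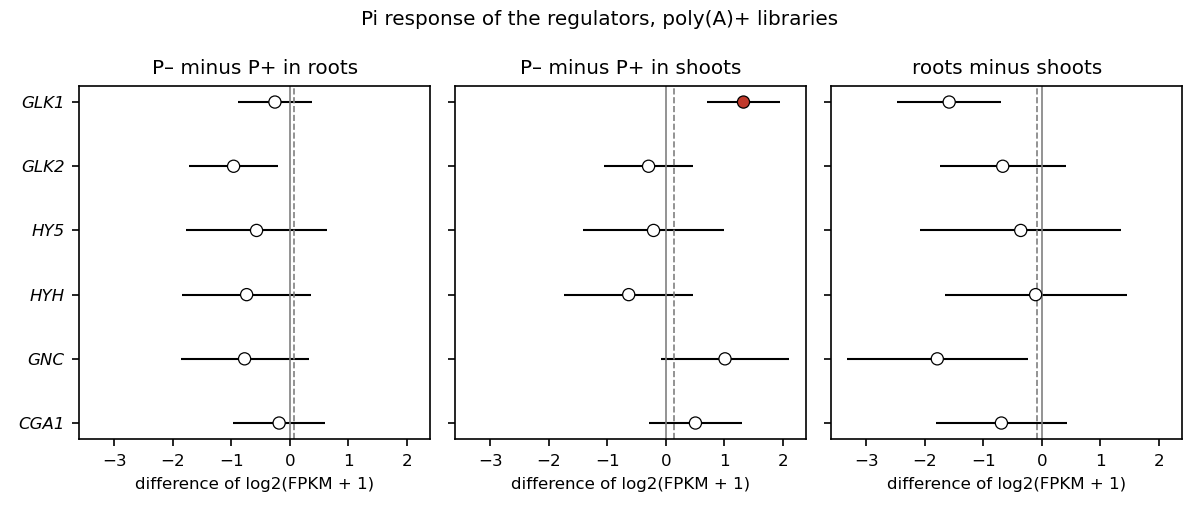
Difference between P– and P+ of the 6 genes in roots and in shoots, and the response in roots minus that in shoots, on the log2(FPKM + 1) scale with 95% intervals, poly(A)+ libraries. A filled point has an adjusted p under 0.05 and the dashed line is the median of all genes tested. GLK1 in shoots (1.33) is the one filled point, and all 6 points lie left of 0 in roots.

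In roots none of the 6 genes was called (limma, 1 at an unadjusted p under 0.05, GLK2), where 4.45% of all genes tested were called. All 6 differences were negative, from -0.18 for CGA1 to -0.96 for GLK2, with a median of -0.65 against 0.07 over all genes. GNC and CGA1 enter this count through P+ library 3 alone, GLK1 lies near the floor, and HY5 turned positive without P– root library 2, as given above. The median was -0.24 without P– root library 2 and -0.69 without P– root library 3. It was -0.51 without P+ root library 2 and -0.31 without P+ root library 3. In shoots the median of the 6 was 0.15 against 0.14 over all genes, with 3 positive and 3 negative. Rescaling took the all-gene median from 0.137 to 0.005 in shoots and from 0.0669 to -0.0343 in roots. With it the share of higher genes among those called went from 60.9 to 45.6% in shoots and from 55.5 to 43.9% in roots, and the rise of GLK1 in shoots was 1.17 (limma adjusted p = 0.0313).

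Photosynthesis genes were lower in P– roots, and the regulators are set beside them here. Of 56 genes of the thylakoid membrane in 4 lists, 18 were called lower and 0 higher in P– roots by limma, against 1.98% of all genes called lower. Their median difference was -1.34, and 52 of 56 were below 0. Photosystem I with its antenna had 9 of 18 called lower (median -1.42), photosystem II 4 of 13 (-1.52), electron carriers with the ATP synthase 4 of 11 (-1.44), and light-harvesting complex II 1 of 14 (-0.97). PSAF, the docking subunit of photosystem I, went from 143 and 66.4 FPKM to 13.8 and 16.6 FPKM (log2 -2.61, limma adjusted p = 0.00676). PSBO2, a subunit of the oxygen-evolving complex, went from 63.5 and 56.1 FPKM to 5.72 and 10.6 FPKM (-2.78, 0.00294), and ATPC1, the gamma subunit of the chloroplast ATP synthase, from 44.3 and 42.9 FPKM to 9.96 and 9.41 FPKM (-2.06, 0.00193). In shoots 2 of the 56 were called lower (3.26% of all genes were), with a median of -0.23. The difference between the tissues was called for 6 of the 56, all with the lower value in roots.

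Library by library, the summed level of the thylakoid lists shows how far each regulator kept step. Light-harvesting complex II summed to 1308 and 422 FPKM in P+ root libraries 2 and 3 and to 319 and 163 FPKM in P– libraries 2 and 3. Photosystem II summed to 1410 and 886 and then to 359 and 321 FPKM, and photosystem I to 1232 and 796 and then to 354 and 280 FPKM. Electron carriers with the ATP synthase summed to 623 and 361 and then to 145 and 185 FPKM. GLK2, at 15.9, 11.0, 8.40 and 4.70 FPKM, stood in the same order over these 4 libraries as the first 3 sums. The electron carriers stood in another order. HY5, at 79.4, 82.0, 28.9 and 100.5 FPKM, was highest in P– library 3, where the first 3 sums were lowest. Its lowest level was in P– library 2, where the electron carriers were lowest. HYH and GLK1 also stood in other orders, and for 4 libraries an order is a description only. The largest sums came from P+ root library 2. Called thylakoid genes numbered 9 without it, 34 without P+ library 3, 7 without P– library 2, and 8 without any single shoot library. The joint fit called 878 genes in roots, and limma on the root libraries alone called 0, with 2392 at an unadjusted p under 0.05.

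**Figure D4:**
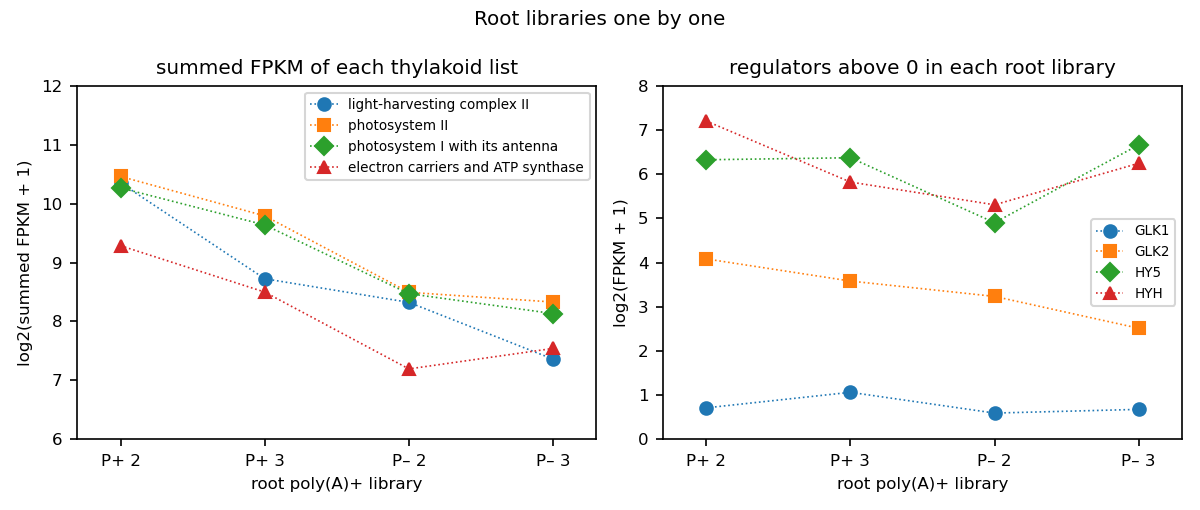
Summed level of the 4 thylakoid lists (left) and level of GLK1, GLK2, HY5 and HYH (right) in each root poly(A)+ library, as log2(FPKM + 1). The sums and GLK2 run down from P+ library 2 to P– library 3, except that electron carriers are lowest in P– library 2 (145 FPKM), and HY5 is lowest in P– library 2 (28.9 FPKM) and highest in P– library 3 (100.5 FPKM).

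Other genes of greening can be read against the 1.98% of all genes called lower in roots and the 3.26% called lower in shoots. The Calvin cycle had 1 of 18 genes called lower in roots (CP12-1, a regulator of the cycle, log2 -2.17, limma adjusted p = 0.005) and a median of -0.05. Chlorophyll synthesis had 4 of 25 called lower in roots (limma, 12 at an unadjusted p under 0.05, median -0.68) and 5 of 25 in shoots (median -0.77). In roots they include CHL27, an enzyme of ring closure, from 76.2 and 28.9 FPKM to 11.0 and 12.4 FPKM (limma adjusted p = 0.0364) and CHLM, the magnesium protoporphyrin methyltransferase, from 112 and 93.8 FPKM to 28.1 and 43.1 FPKM (0.0201). In shoots they include HEMA1, the first committed enzyme of tetrapyrrole synthesis, from 333 and 372 FPKM to 111 and 125 FPKM (log2 -1.57, limma adjusted p = 0.0295). HEMA1 is a known GLK target and fell in the same shoots in which GLK1 rose and GLK2 did not. A link between HEMA1 and either GLK gene was not tested. The plastid sigma factors, which direct the plastid RNA polymerase, had 0 of 6 called in roots (limma, 2 at an unadjusted p under 0.05) and 2 of 6 lower in shoots, SIG5 (log2 -2.49) and SIG1 (-1.83). Plastid division genes had 0 of 8 called in either tissue (limma, 0 in roots and 1 in shoots at an unadjusted p under 0.05).

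**Figure D5:**
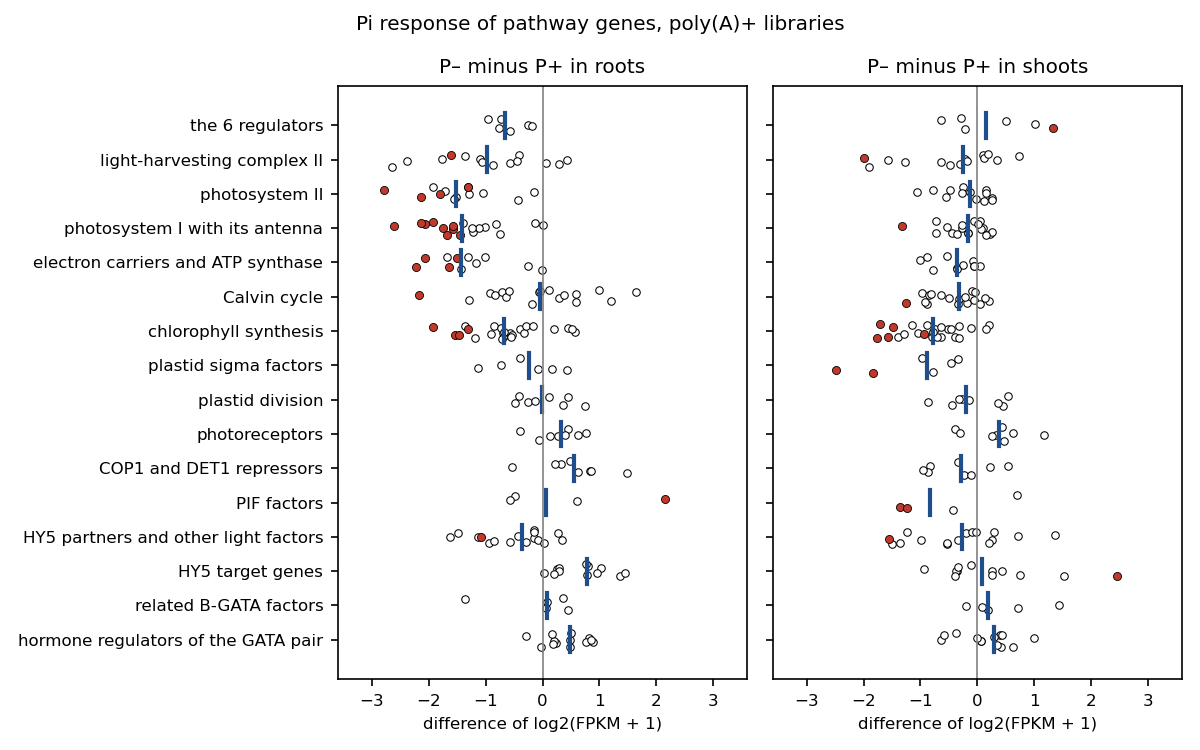
Difference between P– and P+ in roots (left) and shoots (right) for the 6 regulators and each gene of 15 pathway lists, on the log2(FPKM + 1) scale, poly(A)+ libraries. Filled points have an adjusted p under 0.05, bars are medians. The thylakoid lists lie left of 0 in roots (medians -0.97 to -1.52) and near 0 in shoots.

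Of 54 genes tested in 6 lists upstream of or beside the regulators, 2 were called in roots (3.70%, against 4.45% of all genes) and 3 in shoots (5.56%, against 8.35%), shares near the background. Photoreceptor genes had 0 of 8 called in either tissue (limma, 2 at an unadjusted p under 0.05 in each), and genes of the COP1 and DET1 complexes, which repress light responses, 0 of 8 (limma, 1 and 3 at an unadjusted p under 0.05), with medians of 0.55 in roots and -0.28 in shoots. PIF factors, bHLH proteins that counteract greening in darkness, gave 3 calls: PIF3 rose in roots from 3.69 and 2.31 FPKM to 15.9 and 17.4 FPKM (log2 2.16, limma adjusted p = 0.00491), and PIF5 (-1.35, 0.0351) and PIF4 (-1.24, 0.0418) fell in shoots. PIF4 went from 223 and 219 FPKM to 92.1 and 93.2 FPKM. GBF1, a bZIP factor that binds G-boxes as HY5 does, was the only call among 16 tested partners and other light factors, and it fell in roots (-1.09, limma adjusted p = 0.0479) and in shoots (-1.55, 0.00957). Cytokinin, gibberellin and auxin regulators of GNC and CGA1 had 0 of 13 called in either tissue (limma, 1 in roots and 2 in shoots at an unadjusted p under 0.05). Related B-class GATA genes had 0 of 5 (limma, 1 in each tissue at an unadjusted p under 0.05), with GATA17 in shoots at 8.24 and 8.42 FPKM under P+ and 22.8 and 25.8 FPKM under P– (log2 1.44, limma adjusted p = 0.0523).

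Known HY5 target genes lay above 0 in P– roots, unlike the thylakoid genes, but the direction of the targets depended on P– library 3. None of the 12 was called in roots (limma, 2 at an unadjusted p under 0.05, both positive), where 4.45% of all genes were. All 12 differences were above 0, with a median of 0.77. Without P– root library 3 the median was -0.06 over the 11 targets then tested. Their summed level was 487 and 202 FPKM in P+ roots and 321 and 1057 FPKM in P– roots, so P– library 3 stood apart. HY5 was also highest in that library, but in P+ roots it stood at 79.4 and 82.0 FPKM while the sums differed. A link between HY5 and these sums was not tested. CHS, the chalcone synthase that opens flavonoid synthesis, made up much of the sums. It stood at 201 and 74.6 FPKM under P+ and at 188 and 530.5 FPKM under P–. In shoots 1 of the 12 was called, where 8.35% of all genes were, with 6 above and 6 below 0 and a median of 0.07. The call was CHS, from 3.53 and 3.92 FPKM to 26.3 and 23.7 FPKM (log2 2.46, limma adjusted p = 0.0308). CHS stood higher in roots than in shoots. Root markers rose in the same P– shoot libraries, and their part in the rise of CHS was not tested.

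The poly(A)– fraction showed the same directions between the tissues and gave no Pi call. GLK1 stood at 53.3 and 33.8 FPKM in P+ shoots and at 60.1 and 33.3 FPKM in P– shoots, so the groups overlap (log2 0.07, SE 0.62, limma adjusted p = 1), and the difference from the poly(A)+ rise was not tested. GNC stood at 4.51 and 9.55 FPKM in P+ shoots and at 14.0 and 14.5 FPKM in P– shoots (1.00, SE 0.52, limma adjusted p = 0.416). None of the 6 was called for Pi in roots or in shoots (limma, 0 at an unadjusted p under 0.05), in a fraction where 0.293% of all genes were called in roots and 1.06% in shoots. Between the tissues GLK1, GLK2, GNC and HYH were called under both conditions, HY5 under P+ (2.74, limma adjusted p = 0.0271) and not under P– (2.33, 0.0542), and CGA1 under neither, where 30.8% of all genes were called under P+ and 25.5% under P–. GNC and CGA1 were listed at 0 in all 4 poly(A)– root libraries, GLK1 in 3 of 4 (1.56 FPKM in the other), and HYH in 3 of 4 poly(A)– shoot libraries.

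The ratio of the poly(A)+ to the poly(A)– level, each normalized within its own libraries, was highest for HYH in roots, at 3.14 under P+ and 2.71 under P–, with a spread of 1.29 and 1.57 on the log2 scale. GLK1 in shoots went from 0.845 under P+ to 2.02 under P–, with a spread of 0.453 and 0.592 on the log2 scale, and GLK2 in shoots from 1.04 to 1.32. HY5 was at 1.86 and 1.85 in roots, with a spread of 0.603 and 1.68 on the log2 scale, so neither the order of HYH and HY5 nor a change with Pi can be read from these ratios. GNC was at 1.78 and 1.82 in shoots, and CGA1 at 2.49 and 1.09, where poly(A)– libraries of 17.6 and 1.70 FPKM under P– make the second value uncertain.

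The genes whose poly(A)+ pattern was most like that of each regulator were found by Pearson's r over 8 libraries among 16315 genes. For GLK1 they were CHX20 (r = 0.999), AT4G22490 (0.998) and AT1G07280 (0.998), and for GLK2 HR4 (0.996), AT1G22890 (0.996) and MORF9 (0.995). For HY5 they were AT3G20640 (0.991), AT1G64600 (0.989) and NEK1 (0.988), and for HYH AT1G04850 (0.994), AT1G29030 (0.993) and MSRB5 (0.992). For GNC they were AT4G38860 (0.996), AT5G24690 (0.995) and NFU2 (0.994), and for CGA1 PRA1.F1 (0.998), AT4G14480 (0.995) and CHX20 (0.995). CHX20, at 10.7 FPKM in P+ shoots, 19.1 FPKM in P– shoots and about 0.2 FPKM in roots, is on the lists of GLK1 and CGA1. The libraries fall into 2 tissues, so each r mostly reflects the step between roots and shoots. None of the 6 regulators is on another's list, but CGA1 averaged less than the 5 FPKM required and could not enter one.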

How the data were processed

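RNA-seq of 16 libraries was used, and the members and gene lists were chosen with earlier results of these data known. The authors aligned the strand-specific reads to TAIR10 with TopHat, removed organelle reads, and estimated the deposited FPKM values per transcript with eXpress; the labels name an unstranded setting for root replicate 1 and shoot replicate 2 of every group. The authors' fold changes and p-values were not used. Their list of called transcripts, made per transcript and not per gene, holds AT2G20570.1 and AT2G20570.2 of GLK1. It also holds AT3G17609.1, AT3G17609.3 and AT3G17609.4 of HYH. FPKM were summed per gene and 1 was added before log2. Genes averaging 1 FPKM or more across all 8 poly(A)+ libraries (19743) or all 8 poly(A)– libraries (19455) were tested. The 4 groups of each fraction entered one fit of limma 3.58.1 (R 4.3.3) with a variance trend. Tests are two-sided, with Benjamini and Hochberg adjustment over all genes and a threshold of 0.05. The fit was also run on simulated data with independent noise in each library. That simulation holds no strand or replicate effect and cannot show how such effects move the calls. A fold change on the log2(FPKM + 1) scale understates changes of low genes. The study's methods describe 2 independent collections of seedlings, each divided into roots and shoots.

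The rule for naming genes was all 6 members, from each list at most 3 genes per tissue by adjusted p, and for each member the 3 genes of at least 5 FPKM with the highest r. Genes beyond it were named after their values were seen. The 4 thylakoid lists were summed after the values were seen. Gene positions and promoter windows come from TAIR10.1, whose chromosome lengths hold all of the authors' coordinates. The HY5 and HYH windows are not reported here. Python 3.11.15, numpy 2.4.6, pandas 2.3.3 and matplotlib 3.10.9 were used. Alternatives were 0.1 or 5 FPKM added, no filter, a mean of at least 5 FPKM, each tissue alone, rescaling to a median ratio, no variance trend, a replicate block in shoots and leaving out each library. Counts of list genes without P+ root library 2 or 3 and a replicate block in both tissues were added after seeing the data.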

Additional observations from a re-analysis of the deposited data

Results flagged for a closer look

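None of the 6 regulators was called for a difference between roots and shoots in its response to Pi, where 3.56% of all genes tested were. Among the genes named from the lists set beside them, 12 were called (limma, adjusted p under 0.05, poly(A)+, response in roots minus that in shoots, on the log2 scale). The Pi starvation markers had 3 of 12 called, not all of them named here. Of the thylakoid genes, the difference was -2.63 for PSAF, -1.81 for PSAK, -2.24 for PSBO2, -2.40 for PSBQ2, -1.81 for ATPC1 and -1.87 for PETM, and the Calvin cycle regulator CP12-1 had -2.12. The plastid sigma factor genes went the other way, with 2.26 for SIG1 and 2.09 for SIG5, both lower in P– shoots. The phosphatase gene AT1G17710 (PEPC1) had 4.43 and SPX3, a Pi sensor gene, 3.12. CASP1, a root marker of the Casparian strip, had -3.68, from 1.46 to 14.6 FPKM in shoots. With 2 libraries per group no single library could be tested for standing apart.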

How the results depend on the processing

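Numbers of genes called moved with the settings more than the members did, and the cause was not tested. With a replicate block in shoots, where same-numbered deviations correlated at 0.225 in poly(A)+ and 0.0321 in poly(A)– shoots and the labels tie each number to a strand setting but to no shared culture or day, 424 genes were called in roots, 832 in shoots and 186 for the difference in poly(A)+, and 10 and 98 in poly(A)– roots and shoots; 9 thylakoid genes were then lower in roots and 1 in shoots, and GLK1 in shoots (1.33) had an adjusted p of 0.0536 by limma. A replicate block in roots and shoots, chosen after seeing the data (correlations of 0.167 and 0.171 in poly(A)+ and poly(A)– roots), gave 0 and 0 genes in poly(A)– roots and shoots (limma, 1884 and 3358 at an unadjusted p under 0.05), 5 thylakoid genes lower in shoots, and kept the call of GLK1. Each tissue alone gave 0 genes in roots and 3538 in shoots in poly(A)+, 0 and 0 in poly(A)– (limma, 2392 in roots, 1974 and 2436 at an unadjusted p under 0.05), and 0 and 9 thylakoid genes. Adding 0.1 FPKM gave GLK1 1.35 in shoots (limma adjusted p = 0.0605), 533 genes in poly(A)– shoots and 0 thylakoid genes in shoots. Adding 5 FPKM gave 197 and 136 genes in poly(A)– roots and shoots, and 1 member with a difference between tissues, GLK1 (-1.32). No filter gave 107 genes in poly(A)– roots and 11 and 1 thylakoid genes, and rescaling gave 36 genes in poly(A)– roots.

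Leaving out each library in turn, where the lone library left is assumed to vary like the other groups, gave 216 to 3624 genes in roots, 136 to 3439 in shoots and 42 to 2680 for the difference in poly(A)+, 0 to 11 and 0 to 163 in poly(A)– roots and shoots, and 3564 to 6215 (P+) and 2723 to 4878 (P–) between the tissues in poly(A)–. Thylakoid genes called lower were 7 to 34 in roots and 0 to 4 in shoots. The members gave 1.28 to 1.38 for GLK1 and 0.77 to 1.26 for GNC in shoots, -1.45 to 0.31 for HY5 in roots, -0.58 to 0.16 for HY5 in shoots, and differences of -1.76 to -1.41 for GLK1 and -2.56 to -1.01 for GNC, with 0 to 2 members called. In poly(A)+, 409 of 424 alternative values of the members kept direction and side of the threshold. This count includes the tissue comparisons, which were called under every setting, and Pi tests far from the threshold. The rise of GLK1 in shoots, the one Pi call, kept its direction in all 17 settings and its call in 11. Read depth was not used here, and levels under 1 FPKM are the least certain.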
